A study of Mus musculus with 16 samples.

Results

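Ch25h and 9 genes of the LXR pathway were followed across mouse bone marrow macrophages grown with or without fibronectin and with or without neutralization of the integrin subunit ITGAV. The genes were taken by their symbols from the deposited tables: Ch25h, the LXR receptors Nr1h3 and Nr1h2, and the LXR targets Abca1, Abcg1, Mylip, Pltp, Apoe, Srebf1 and Lpcat3. Each of the 10 symbols matched 1 of the 54532 genes in the tables, and all 10 were among the 15469 genes with enough counts to be tested. No member was removed by the filter on low counts.

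Bone marrow cells from tibiae of wild-type C57BL/6 mice aged 2 to 3 months were differentiated in 15% serum with the macrophage growth factor CSF-1, at 12 ng/ml for 24 h and then at 120 ng/ml for 48 h. The adherent cells were passaged once, either onto normal culture plates (called uncoated here) or onto plates coated with fibronectin at 10 µg/ml, and grown to confluence. They then received an IgG control antibody or a neutralizing antibody to ITGAV for 24 h, each at 10 µg/ml. The 4 groups of 4 libraries are called uncoated_IgG, uncoated_antiITGAV, fibronectin_IgG and fibronectin_antiITGAV, and each contained an antibody. The labels do not say whether replicates came from separate mice or cultures, and the p-values therefore cover no more than the variation among these libraries, possibly technical.

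Cholesterol 25-hydroxylase, the product of Ch25h, turns cholesterol into an oxysterol. Oxysterols of this kind are known to activate the liver X receptors LXRα (Nr1h3) and LXRβ (Nr1h2) and to hold back the processing of SREBP-2, the driver of cholesterol synthesis and uptake. Liver X receptors bind DNA together with retinoid X receptors. In macrophages they are known for switching on genes that export cholesterol to lipoproteins, among them Abca1, Abcg1 and Apoe.

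The promoter sequences of 3 members are shown because they hold a known kind of LXR or cyclic AMP response element: Abca1 and Ch25h changed with coating, and Srebf1, which did not pass the test, holds the same LXR element as Abca1. They come from RefSeq on GRCm38.p6, run from 250 bases before to 50 bases after a start, and are written 5′ to 3′ on the gene's strand. Of the 10 members, 9 matched the promoter table with 14 starts. Capitals mark the motif found.
Abca1, chr4:53159846-53160145, minus strand: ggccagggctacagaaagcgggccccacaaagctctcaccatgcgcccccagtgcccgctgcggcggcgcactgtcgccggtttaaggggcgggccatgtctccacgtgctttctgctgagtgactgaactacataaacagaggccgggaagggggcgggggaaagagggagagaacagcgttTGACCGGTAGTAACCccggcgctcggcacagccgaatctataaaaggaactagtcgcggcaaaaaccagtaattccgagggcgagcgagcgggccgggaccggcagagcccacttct
Srebf1, a start within the gene, chr11:60210422-60210721, minus strand: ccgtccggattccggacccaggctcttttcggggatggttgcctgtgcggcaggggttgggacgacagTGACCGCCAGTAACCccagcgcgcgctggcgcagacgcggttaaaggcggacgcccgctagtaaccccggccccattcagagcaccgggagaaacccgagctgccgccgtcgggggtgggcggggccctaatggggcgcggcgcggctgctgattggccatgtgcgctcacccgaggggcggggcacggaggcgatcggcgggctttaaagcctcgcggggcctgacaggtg
Ch25h, chr19:34475099-34475398, minus strand: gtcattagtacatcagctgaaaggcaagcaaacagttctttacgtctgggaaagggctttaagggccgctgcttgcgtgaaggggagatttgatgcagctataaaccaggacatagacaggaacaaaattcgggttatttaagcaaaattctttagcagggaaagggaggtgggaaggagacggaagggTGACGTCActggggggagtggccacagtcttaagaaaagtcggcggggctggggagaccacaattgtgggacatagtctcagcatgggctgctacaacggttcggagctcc
In Abca1 and Srebf1 the capitals mark GGTTACT followed, after any 3 bases, by GGTCA, a strict form of the direct repeat bound by LXR, which lies on the opposite strand in both. That form was written after elements already known in LXR targets, so its presence in these genes is background. The Abca1 match occupied chromosome 4, 53159948 to 53159962, from -67 to -53 relative to the start, and the Srebf1 match chromosome 11, 60210639 to 60210653, from -182 to -168. Searched on both strands, that motif occurred in 6 of 32851 promoters of this length (0.0183%). The looser form GGTNA, any 5 bases, GGTNA, which includes every match of the strict form, occurred in 236 (0.718%), and among the members it again matched Abca1 and Srebf1. In Ch25h the capitals mark TGACGTCA, the cyclic AMP response element, at chromosome 19, 34475202 to 34475209, from -61 to -54. That motif reads the same on both strands, occurred in 588 promoters (1.79%) and matched no other member. These matches describe the letters of the windows and nothing else.

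Sequencing depth was 27995035 to 43413650 counts per library. Levels are given as CPM (counts scaled to a common library total, with TMM factors that adjust for differences in library make-up) or, to compare genes, as the deposited FPKM, which also divides by gene length. The macrophage markers summed to 26900 to 34800 CPM in all 16 libraries, and none of those 10 markers was at 0. Most of that sum was Lyz2, which averaged 23420 CPM. The library fibronectin_antiITGAV 3 stood apart: its mitochondrial share of counts was 3.67%, where the remaining 15 libraries had 1.3 to 1.6%, and its mean correlation with the others was 0.965 against 0.976 to 0.983. Its deviations also followed the GC content of transcripts (Spearman's rho across genes -0.69, against -0.29 to 0.54 in the others). Where it moves a printed value of a member or another named gene across the threshold, both values are given.

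**Figure D1:**
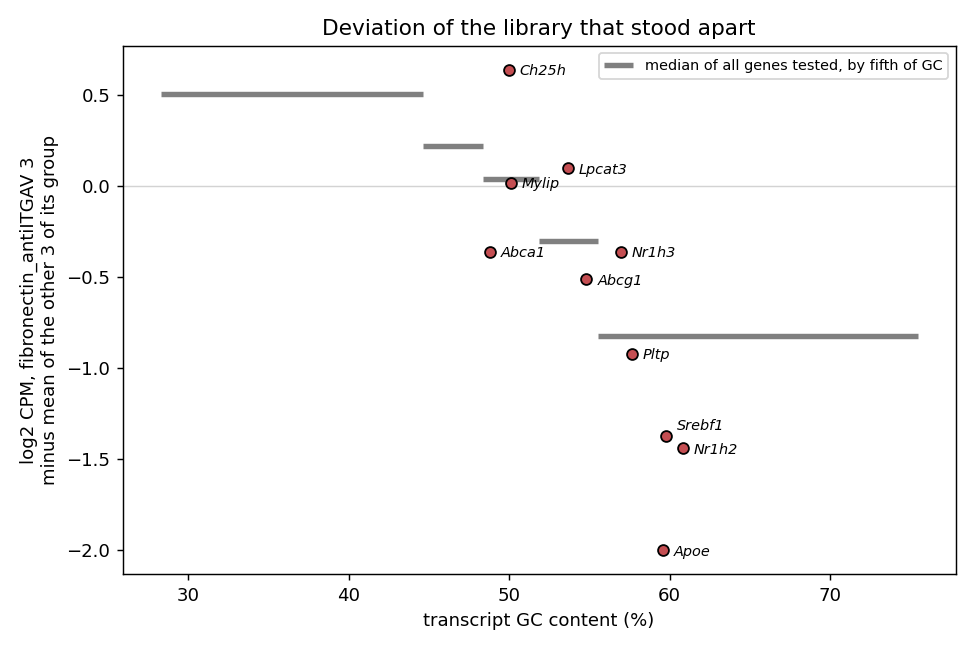
Log2 CPM in fibronectin_antiITGAV 3 minus the mean of the other 3 libraries of its group (vertical axis), against transcript GC content in percent (horizontal axis). Points are the 10 members and grey bars are medians of all tested genes in 5 equal bins of GC content, which run from 0.51 at the lowest GC to -0.82 at the highest. Apoe, Nr1h2 and Srebf1 lie lowest, at -2, -1.44 and -1.37.

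The deviation of that library was uneven among the members. Apoe (transcript GC 59.58%) was 2 log2 units below the mean of the other 3 libraries of its group, at -2, Nr1h2 (60.85%) was at -1.44, Srebf1 (59.75%) at -1.37 and Pltp (57.67%) at -0.92. Ch25h (49.96%) was above them, at 0.64, while Mylip was at 0.02 and Lpcat3 at 0.1. The median of all genes in the highest of 5 bins of GC content was -0.82.

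Fibronectin was accompanied by more Ch25h RNA and by less RNA of the cholesterol exporters. Under IgG, Ch25h was 8.47-fold higher on fibronectin than on uncoated plates, while Abca1, Abcg1 and Mylip fell to 0.526, 0.695 and 0.773 of their uncoated level. These 4 of 10 members had an adjusted p under 0.05, against 3.79% of all genes tested (2.37% higher and 1.42% lower; edgeR quasi-likelihood test, Benjamini-Hochberg adjusted over all genes). The members were chosen with earlier results of these data known. The contrast with all genes, here and below, is therefore descriptive. Under anti-ITGAV, 6 members passed, against 5.66% of all genes (2.84% higher and 2.83% lower): Ch25h rose, and Abca1, Abcg1, Mylip, Pltp and Apoe fell. With both antibodies averaged, which uses the same libraries again and is no further evidence, the same 6 passed in the same directions, against 11.8% of all genes. The median log2 change of the members was -0.23 under IgG and -0.40 under anti-ITGAV, where the medians of all genes were 0.00 and 0.01. Without fibronectin_antiITGAV 3, 6 members passed under IgG, 5 under anti-ITGAV and 6 with the antibodies averaged, against 8.4%, 6.17% and 15.7% of all genes. Without any one of uncoated_IgG 1 or 2, or fibronectin_IgG 1, 3 or 4, 2 members passed under IgG, Ch25h and Abca1, against 1.59 to 2.52% of all genes. In a bulk sample, fewer cells of a type and less RNA per cell cannot be told apart.

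**Figure D2:**
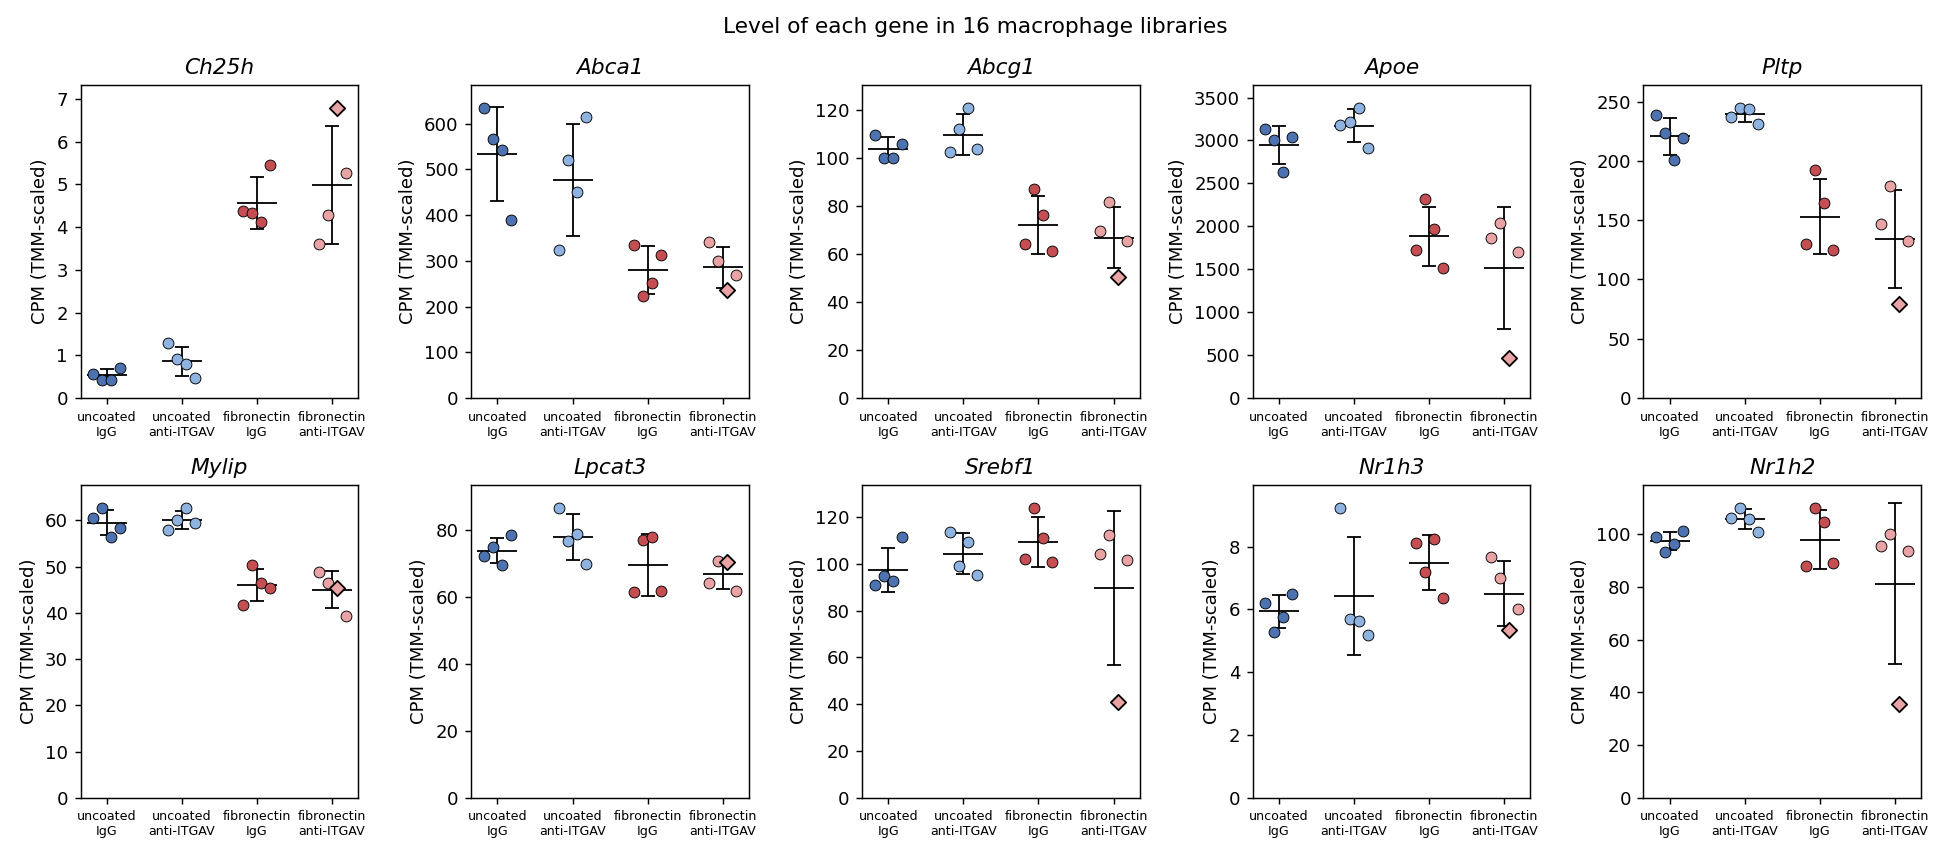
CPM (vertical axes, from 0) of the 10 members in every library, by group of coating and antibody (horizontal axes). Points are libraries, the diamond is fibronectin_antiITGAV 3, and bars are the mean and SD of 4 libraries. The 8 fibronectin libraries lie above the 8 uncoated ones for Ch25h, and below them for Abcg1, Mylip, Pltp and Apoe. The share of all genes that separate in this way was not counted.

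The groups separated library by library for several members. Under IgG, 6 of 10 members had no overlap between fibronectin and uncoated libraries (Ch25h, Abca1, Abcg1, Mylip, Pltp and Apoe), against 13.1% of all genes (7.89% higher and 5.26% lower). Under anti-ITGAV the 6 without overlap were Ch25h, Nr1h2, Abcg1, Mylip, Pltp and Apoe, against 14.1% of all genes (6.55% higher and 7.53% lower). For separation over both antibodies together, given for single genes below, the share of all genes was not counted.

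Ch25h (chromosome 19, 34473786 to 34475135, minus strand), a gene of 1 exon that makes the oxysterol, was scarce on uncoated plates. The uncoated_IgG libraries held 0.564, 0.421, 0.424 and 0.711 CPM and the uncoated_antiITGAV libraries 1.28, 0.911, 0.794 and 0.466 CPM, from 12 to 43 counts each. On fibronectin the IgG libraries held 4.38, 4.32, 4.11 and 5.46 CPM and the anti-ITGAV libraries 3.6, 4.29, 6.78 and 5.27 CPM, from 130 to 252 counts each. Every fibronectin library was above every uncoated library, and the highest of all was fibronectin_antiITGAV 3.

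With coating, Ch25h changed by a log2 value of 3.08 ± 0.29 (SE, edgeR adjusted p = 2.03e-05) under IgG and 2.53 ± 0.28 (adjusted p = 8.08e-05) under anti-ITGAV. Without fibronectin_antiITGAV 3 the latter was 2.35 ± 0.27 (adjusted p = 7.59e-05). Ch25h, whose promoter is shown above, was the only member called as higher in the edgeR fit. Of the exon bases of Ch25h, 11.5% lie opposite an exon of Gm26902, a long noncoding RNA gene whose own counts ranged from 6 to 45 per library. The strand setting of the counting is not given in the sources used here, and without it reads from the shared bases cannot be told apart.

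Of 11 other listed enzymes and receptors of oxysterols and related ligands, 7 had enough counts to be tested. With the antibodies averaged, 0 were higher and 1 was lower, against 6.58% and 5.26% of all genes, and their median log2 change was -0.08 (-0.03 without fibronectin_antiITGAV 3). The lower gene was Cyp27a1, the mitochondrial sterol 27-hydroxylase, which makes another LXR ligand. On uncoated plates it stood at 52.7 ± 6.37 CPM (SD, n = 4) under IgG and 56.2 ± 2.58 under anti-ITGAV, on fibronectin at 32.6 ± 3.24 and 29.2 ± 5.14, and all 8 fibronectin libraries were below all 8 uncoated ones. For Cyp27a1 the log2 change was -0.69 ± 0.13 (SE, edgeR adjusted p = 0.00461) under IgG and -0.95 ± 0.13 (adjusted p = 0.000418) under anti-ITGAV. The Cyp27a1 call was kept in every alternative fit of all 3 coating comparisons. Dhcr7, of the last steps of cholesterol synthesis, had a log2 change of -0.10 that did not pass. Cyp39a1, an oxysterol hydroxylase, was at 1.14 to 1.89 CPM on average in the groups and also did not pass. Gpr183, a receptor for oxysterols made from the product of Ch25h, stood at 32.9 to 39.3 CPM in the group means, with a log2 change of 0.03 ± 0.06 (SE). Cyp7b1, the enzyme that completes that ligand, had too few counts to be tested, as had Cyp7a1, Cyp46a1 and Hsd3b7.

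Neither receptor gene passed the test. Nr1h3 (chromosome 2, 91184061 to 91202834, minus strand), which encodes LXRα, had 5.93 ± 0.53 CPM (SD, n = 4) on uncoated plates and 7.48 ± 0.876 on fibronectin under IgG, and 6.43 ± 1.88 and 6.5 ± 1.04 under anti-ITGAV. Its log2 change with coating was 0.33 (95% interval -0.04 to 0.71) under IgG and 0.01 (-0.36 to 0.39) under anti-ITGAV. Libraries of the groups overlapped, with uncoated_antiITGAV 1 highest of all at 9.23 CPM.

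Nr1h2 (chromosome 7, 44549616 to 44553951, minus strand), which encodes LXRβ, was the more abundant receptor transcript per length. In FPKM it exceeded Nr1h3 by 4.99- to 14.6-fold in the 16 libraries, with the lowest ratio in fibronectin_antiITGAV 3. Its CPM values were 98.9, 93.2, 96.1 and 101 in uncoated_IgG and 87.9, 109.8, 104.7 and 88.9 in fibronectin_IgG, which overlap. In uncoated_antiITGAV they were 105.9, 109.9, 105.7 and 100.7, all above the 95.5, 99.9, 35.4 and 93.7 of fibronectin_antiITGAV. The log2 change of Nr1h2 under anti-ITGAV was -0.38 ± 0.21 (SE, edgeR adjusted p = 0.302), and -0.13 ± 0.08 (adjusted p = 0.414) without fibronectin_antiITGAV 3.

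Of the 18 listed partners and co-regulators of LXR, 17 were tested. With the antibodies averaged, 1 was higher and 1 lower, a share equal to the 11.8% of all genes called in that comparison. Prmt5, an arginine methyltransferase, was higher (log2 change 0.29 ± 0.08, SE, edgeR adjusted p = 0.0249) and Rxrb, a retinoid X receptor, was lower (-0.35 ± 0.11, adjusted p = 0.0458; -0.26, adjusted p = 0.0152, without fibronectin_antiITGAV 3). The acetyltransferase gene Ep300 (-0.18, adjusted p = 0.0561; -0.155, adjusted p = 0.0431, without that library) and the coactivator gene Ncoa1 (-0.21, adjusted p = 0.251) did not pass with all libraries. The median of the 17 was -0.04, and 0 of them passed under either antibody alone. Without fibronectin_antiITGAV 3, 3 partners were higher and 2 lower with the antibodies averaged, where 15.7% of all genes were called. Under IgG without that library 2 were higher, where 8.4% of all genes were called.

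The exporter Abca1 (chromosome 4, 53030787 to 53159895, minus strand), which loads cholesterol onto lipid-poor apolipoprotein A-I, was lower on fibronectin. Its levels were 633.8, 567, 541.7 and 389.6 CPM in uncoated_IgG and 334.4, 222.1, 250.5 and 313.5 CPM in fibronectin_IgG, so these groups did not overlap. In uncoated_antiITGAV they were 323.7, 520.1, 450.1 and 614.7 CPM, and in fibronectin_antiITGAV 340.2, 298.9, 235.5 and 269.1 CPM. Here the lowest uncoated library lay below the highest fibronectin library.

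Under IgG the log2 change of Abca1 was -0.93 ± 0.19 (SE, edgeR adjusted p = 0.00953), and every fit that left out 1 library kept that call. Under anti-ITGAV it was -0.74 ± 0.19 (adjusted p = 0.0289). That call was lost without fibronectin_antiITGAV 3 (-0.66, adjusted p = 0.111) or 4 (-0.72, adjusted p = 0.0708), and without uncoated_antiITGAV 2 (-0.69, adjusted p = 0.0909), 3 (-0.77, adjusted p = 0.0586) or 4 (-0.59, adjusted p = 0.0756). Abca1 is 1 of the 2 members with the strict LXR element in the promoter sequences above.

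Abcg1 (chromosome 17, 31057698 to 31115777, plus strand), which exports cholesterol to mature high-density lipoprotein, had 109.8, 100.2, 99.9 and 105.8 CPM in uncoated_IgG and 102.4, 112.1, 120.9 and 103.7 CPM in uncoated_antiITGAV. On fibronectin it had 64.3, 87.3, 76.3 and 61.1 CPM with IgG and 69.8, 81.7, 50.7 and 65.6 CPM with anti-ITGAV. All 8 fibronectin libraries were below all 8 uncoated ones. Abcg1 had log2 changes of -0.52 ± 0.13 (SE, edgeR adjusted p = 0.0338) under IgG and -0.71 ± 0.13 (adjusted p = 0.00484) under anti-ITGAV. Under IgG the adjusted p of the fits without 1 library ran from 0.00327, without fibronectin_antiITGAV 3, to 0.122. It was above 0.05 without any one of uncoated_IgG 1 to 4, uncoated_antiITGAV 2, or fibronectin_IgG 1, 3 or 4. Under anti-ITGAV the same range was 0.00256 to 0.0215.

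Mylip (chromosome 13, 45389742 to 45412022, plus strand), the ubiquitin ligase also called Idol, which limits lipoprotein uptake, showed a smaller difference with little spread. It stood at 59.5 ± 2.71 CPM (SD, n = 4) in uncoated_IgG and 60.0 ± 1.95 in uncoated_antiITGAV. On fibronectin it stood at 46.0 ± 3.51 CPM with IgG and 45.0 ± 4.04 with anti-ITGAV. The 8 uncoated libraries lay between 56.45 and 62.7 CPM and the 8 fibronectin libraries between 39.4 and 50.3 CPM. Mylip had log2 changes of -0.37 ± 0.09 (SE, edgeR adjusted p = 0.0209) under IgG and -0.41 ± 0.09 (adjusted p = 0.00899) under anti-ITGAV. The adjusted p under IgG ran from 0.00481 to 0.0809 over the fits without 1 library. It was above 0.05 without uncoated_IgG 1 or 2, or fibronectin_IgG 1, 3 or 4.

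Apoe (chromosome 7, 19696109 to 19699188, minus strand), a secreted apolipoprotein that accepts cholesterol, was the most abundant member. Its levels were 3134, 3004, 2629 and 3042 CPM in uncoated_IgG and 3175, 3211, 3377 and 2913 CPM in uncoated_antiITGAV. On fibronectin they were 1727, 2324, 1966 and 1515 CPM with IgG and 1861, 2036, 466.6 and 1703 CPM with anti-ITGAV. All 8 fibronectin libraries were below all 8 uncoated ones, and fibronectin_antiITGAV 3 was far below the rest.

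The log2 change of Apoe under IgG, -0.65 ± 0.28 (SE), did not pass with all 16 libraries, which share 1 estimate of the spread (edgeR adjusted p = 0.276). Without fibronectin_antiITGAV 3, which is in neither group of that comparison, it was -0.65 ± 0.11 (adjusted p = 0.00082). Under anti-ITGAV it was -1.06 ± 0.29 (adjusted p = 0.0374) with all libraries and -0.76 ± 0.12 (adjusted p = 0.000758) without fibronectin_antiITGAV 3. That call was lost, at an adjusted p of 0.0512 to 0.0924, without any one of uncoated_IgG 1, uncoated_antiITGAV 1 to 4, fibronectin_IgG 3 or fibronectin_antiITGAV 4.

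Pltp (chromosome 2, 164839518 to 164857711, minus strand), a secreted protein that moves phospholipid between lipoproteins, followed the same order of groups. It had 239.1, 223.4, 201.1 and 218.9 CPM in uncoated_IgG, against 130, 192.5, 164.7 and 124.5 CPM in fibronectin_IgG. Under anti-ITGAV it had 237.3, 244.5, 244.0 and 231.3 CPM uncoated, against 146.5, 178.5, 79.7 and 132.2 CPM on fibronectin. No fibronectin library reached the lowest uncoated one.

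The log2 change of Pltp was -0.53 ± 0.18 (SE, edgeR adjusted p = 0.129) under IgG, and -0.53 ± 0.12 (adjusted p = 0.0101) without fibronectin_antiITGAV 3. Under anti-ITGAV it was -0.83 ± 0.18 (adjusted p = 0.0122), and -0.65 ± 0.13 (adjusted p = 0.00683) without that library. Of the exon bases of Pltp, 19.3% lie opposite exons of Ctsa, a lysosomal protease gene with 24879 to 44841 counts per library. Reads from those bases cannot be told apart without a known strand setting.

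Srebf1 and Lpcat3, the targets that act in fatty acid synthesis and in phospholipid remodelling, did not pass in any comparison of the edgeR fit with all libraries. Srebf1 (chromosome 11, 60199089 to 60222581, minus strand), which encodes SREBP-1, had 97.5 ± 9.39 CPM (SD, n = 4) on uncoated plates and 109.4 ± 10.6 on fibronectin under IgG, and 104.3 ± 8.66 and 89.8 ± 33 under anti-ITGAV. Without fibronectin_antiITGAV 3, whose value was 40.9 CPM, the last of these groups stood at 106.1 ± 5.53 CPM (n = 3). With coating, Srebf1 had a log2 change of 0.17 (95% interval -0.27 to 0.61) under IgG and -0.22 (-0.66 to 0.23) under anti-ITGAV, or 0.03 ± 0.09 (SE) without that library. Srebf1 carries the other strict LXR element shown above. Lpcat3 (chromosome 6, 124663027 to 124704418, plus strand) stood at 73.7 ± 3.83, 77.9 ± 6.85, 69.4 ± 9.24 and 66.7 ± 4.5 CPM in uncoated_IgG, uncoated_antiITGAV, fibronectin_IgG and fibronectin_antiITGAV, respectively. Its log2 change was -0.09 (-0.30 to 0.12) under IgG and -0.22 (-0.43 to -0.01, edgeR adjusted p = 0.198) under anti-ITGAV, and the libraries overlapped. Among the alternative fits, voom with quality weights called Lpcat3 lower under anti-ITGAV (-0.25, adjusted p = 0.0288). The GC offset joined to leaving out fibronectin_antiITGAV 3 did so too (-0.215, adjusted p = 0.0325). Both fits also called Lpcat3 lower with the antibodies averaged (adjusted p = 0.00306 and 0.00408). Of the exon bases of Lpcat3, 10.2% lie opposite exons of Emg1.

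Levels per length differed widely between the members. In uncoated_IgG the order was Apoe (1364 FPKM), Pltp (85.1), Abca1 (50.9), Nr1h2 (28.7), Abcg1 (25.3), Lpcat3 (22.3), Mylip (18.2), Srebf1 (17.1), Nr1h3 (2.33) and Ch25h (0.388). Of the neighbours in that order, only Mylip and Srebf1 overlapped between libraries. In fibronectin_IgG the order was Apoe (864 FPKM), Pltp (58.6), Nr1h2 (28.6), Abca1 (26.5), Lpcat3 (20.8), Srebf1 (19.1), Abcg1 (17.4), Mylip (13.9), Ch25h (3.31) and Nr1h3 (2.92). There Nr1h2, Abca1, Lpcat3, Srebf1 and Abcg1 each overlapped with the next in the order, and Mylip lay above Ch25h with no overlap. Ch25h, the lowest member on uncoated plates, overlapped with Nr1h3 on fibronectin.

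**Figure D3:**
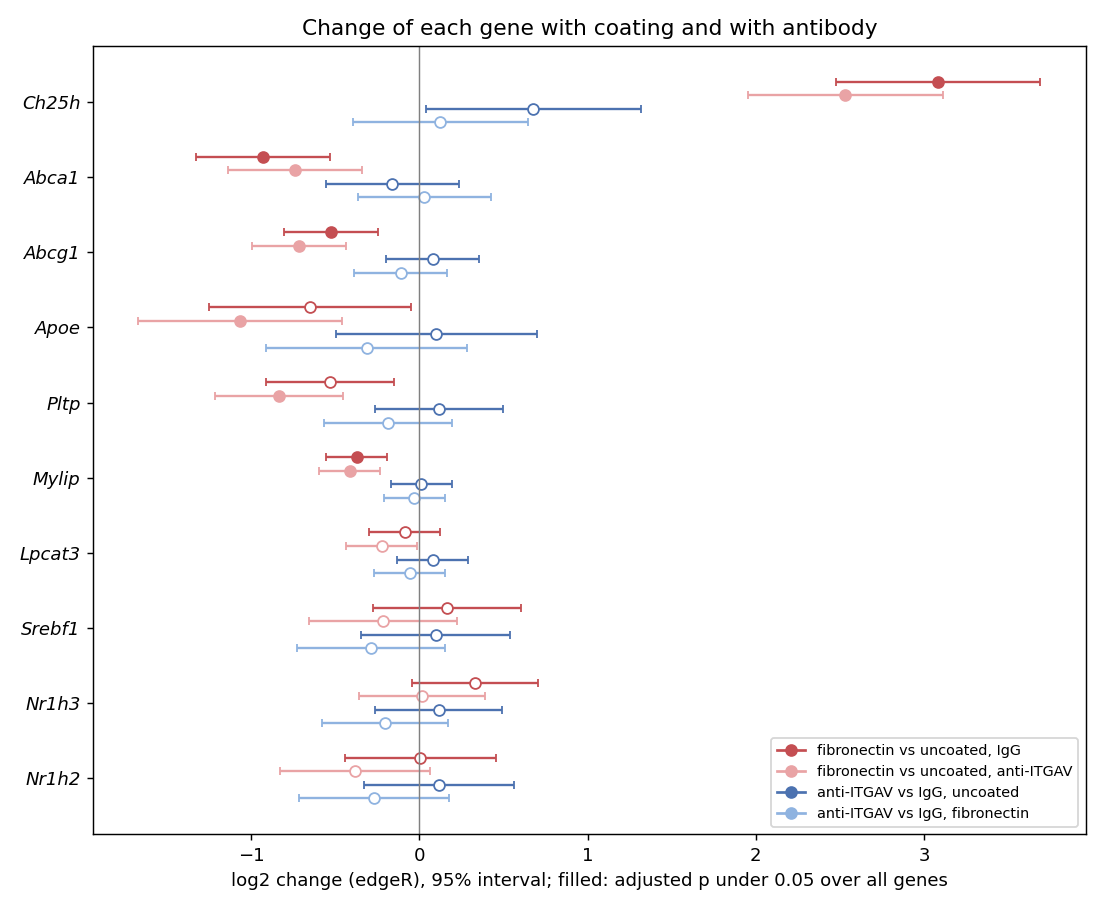
Log2 change of the 10 members (horizontal axis; edgeR, bars are 95% intervals) for fibronectin over uncoated plates under each antibody and for anti-ITGAV over IgG on each coating. Filled points have an adjusted p under 0.05 over all genes. All filled points are coating comparisons, with Ch25h at 3.08 and 2.53 and the others between -1.06 and -0.37.

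Neutralizing ITGAV gave no called change in any member. On uncoated plates, on fibronectin and with the coatings averaged, 0 of 10 members passed, against 0.0129%, 0.0129% and 0.0711% of all genes (edgeR; 0.0388% higher and 0.0323% lower with the coatings averaged). DESeq2 and limma on log2(FPKM + 1) also called 0. The libraries of both antibodies overlapped for all 10 members, where 3.15% of all genes were free of overlap on uncoated plates (2.24% higher and 0.912% lower) and 2.42% on fibronectin (1.05% higher and 1.37% lower). At an unadjusted p under 0.05, edgeR gave 1 member on uncoated plates, Ch25h, and 0 on fibronectin, against 3.04% and 4.65% of all genes. With the coatings averaged, the 95% intervals of the log2 change were -0.01 to 0.81 for Ch25h, -0.35 to 0.21 for Abca1, -0.21 to 0.18 for Abcg1, -0.14 to 0.12 for Mylip, -0.30 to 0.23 for Pltp and -0.53 to 0.32 for Apoe. The intervals leave room for changes of these sizes, so they do not show that the antibody is without effect.

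On uncoated plates the mean of Ch25h was 0.53 ± 0.138 CPM (SD, n = 4) under IgG and 0.863 ± 0.336 CPM under the neutralizing antibody. The log2 change was 0.68, with an SE of 0.30 (edgeR adjusted p = 0.988), and the libraries overlapped. On fibronectin the means were 4.57 ± 0.605 and 4.98 ± 1.38 CPM, a log2 change of 0.13 ± 0.25. The change with fibronectin was therefore smaller under anti-ITGAV by 0.55 ± 0.39 on the log2 scale, a difference that did not pass (interaction -0.55, edgeR adjusted p = 0.646). No member had an interaction with an adjusted p below 0.646, and 0% of all genes passed in edgeR (614 at an unadjusted p under 0.05, and 1 called by DESeq2). The comparisons of antibody and of coating share libraries.

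**Figure D4:**
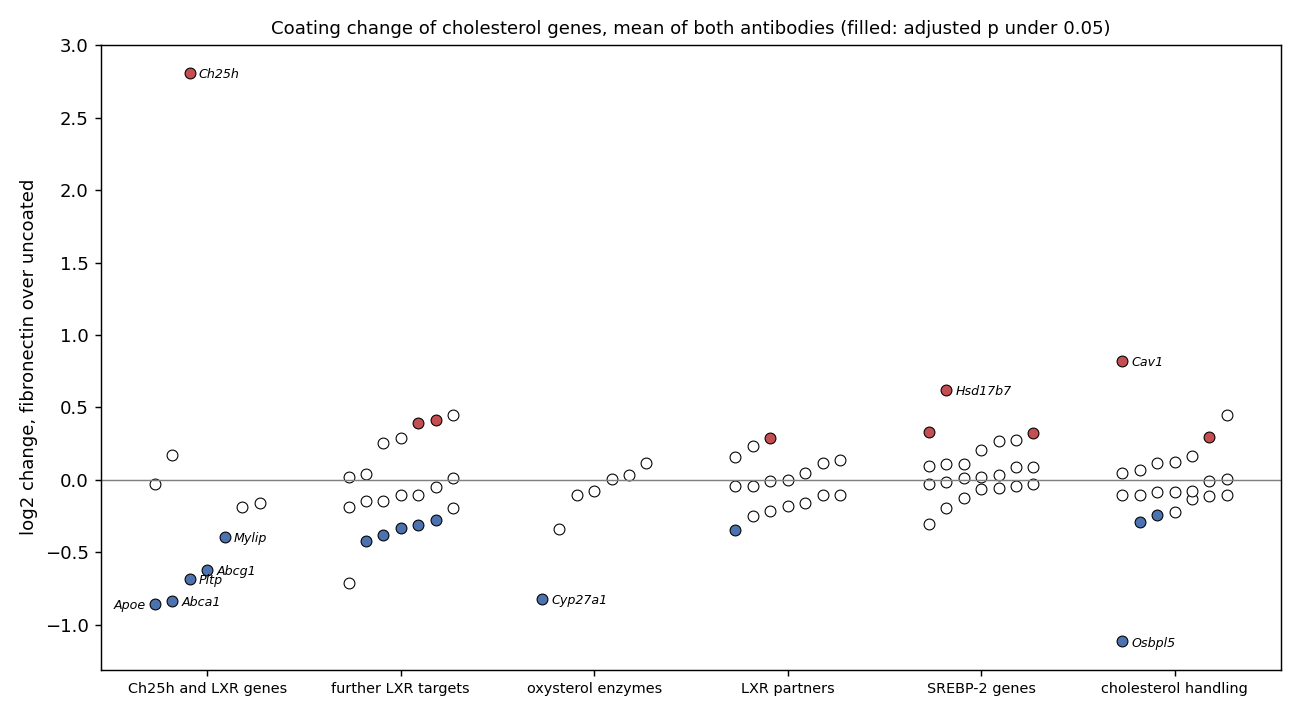
Log2 change of fibronectin over uncoated plates, mean of both antibodies (vertical axis), for the tested genes of 6 cholesterol lists (horizontal axis; positions within a list only spread the points). Filled points have an adjusted p under 0.05, red for higher and blue for lower. Ch25h at 2.81 is the highest point, and 5 members, 5 further LXR targets and Cyp27a1 are among the blue ones.

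Of 25 further known LXR targets, 21 were tested. With the antibodies averaged, 5 were lower and 2 were higher, against 5.26% and 6.58% of all genes, and their median log2 change was -0.11. Mertk, a receptor for engulfing dead cells and also a macrophage marker, stood at 214.8 ± 10.2 CPM (SD, n = 4) in uncoated_IgG and 156 ± 14.5 in fibronectin_IgG. Its log2 change was -0.46 ± 0.08 (SE, edgeR adjusted p = 0.00418) under IgG and -0.38 ± 0.08 (adjusted p = 0.0121) under anti-ITGAV. Arl4c, a small GTPase (-0.31, adjusted p = 0.00202), Sort1, a sorting receptor (-0.28, adjusted p = 0.00296), and Cd5l, a secreted macrophage protein (-0.38, adjusted p = 0.00324), were also lower with the antibodies averaged. The other 3 that passed are named here after their values were seen: the desaturase gene Scd1 was lower (-0.33), and Tgm2, a transglutaminase, and Fasn, the fatty acid synthase, were higher (0.39 and 0.42). Under IgG alone 0 were higher and 2 lower, against 2.37% and 1.42% of all genes. Without fibronectin_antiITGAV 3 that became 2 higher and 5 lower, where 8.4% of all genes were called. Under anti-ITGAV with all libraries 0 were higher and 4 lower, against 2.84% and 2.83% of all genes.

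A list of 24 genes held targets of SREBP-2 in cholesterol synthesis and uptake, the SREBP-2 gene and genes that process or retain SREBP. Of these, 23 were tested. With the antibodies averaged 3 were higher and 0 lower, against 6.58% and 5.26% of all genes, and the median log2 change was 0.03. Hsd17b7, a sterol reductase, rose by 0.62 ± 0.10 (SE, edgeR adjusted p = 0.000696), Sqle, the squalene epoxidase, by 0.33 ± 0.06 (adjusted p = 0.00225), and Cyp51, the lanosterol demethylase, by 0.32 ± 0.09 (adjusted p = 0.0249). Msmo1, a sterol oxidase, had 0.28 ± 0.09 (adjusted p = 0.0613). Without fibronectin_antiITGAV 3, Hsd17b7 had 0.55 (adjusted p = 0.000227), Sqle 0.30 (adjusted p = 0.000783), Cyp51 0.23 (adjusted p = 0.00521) and Msmo1 0.18 (adjusted p = 0.0258). Under anti-ITGAV, Cyp51 had 0.402 with that library and 0.215 without it. Insig1, which retains SREBP in the endoplasmic reticulum, had -0.03 and did not pass. Under IgG alone 0 passed in either direction. Without fibronectin_antiITGAV 3 there were 3 higher and 0 lower under IgG, where 8.4% of all genes were called. Under anti-ITGAV 2 were higher, Hsd17b7 (adjusted p = 0.00908) and Sqle (adjusted p = 0.0226), and 0 lower, against 2.84% and 2.83% of all genes.

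Of 22 genes that release, esterify or move cholesterol, all tested, 2 were higher and 3 lower with the antibodies averaged, against 6.58% and 5.26% of all genes, with a median log2 change of -0.08 (-0.01 without fibronectin_antiITGAV 3). Plin2, which coats lipid droplets, rose by 0.30 ± 0.06 (SE, edgeR adjusted p = 0.00414) on the log2 scale. Osbpl11 (-0.29, adjusted p = 0.00173) and Osbpl5 (-1.11, adjusted p = 0.00479), of the oxysterol-binding protein family, were lower. The lysosomal membrane protein gene Scarb2 (-0.24, adjusted p = 0.0137) was lower too. Osbpl5 was scarce, at 0.435 to 1.46 CPM in the group means. The second higher gene, Cav1 of caveolae (0.82, adjusted p = 0.0211), is named after its value was seen. Lipa, the lysosomal acid lipase and a neighbour of Ch25h on chromosome 19, stood at 2187 to 2728 CPM in the group means, with a log2 change of 0.12 ± 0.08 (adjusted p = 0.401). Lipa was at 3619 CPM in fibronectin_antiITGAV 3 and at 2369, 2483 and 2440 CPM in the other libraries of that group, and without fibronectin_antiITGAV 3 its log2 change was 0.04 ± 0.05 (adjusted p = 0.691).

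Markers of other blood and stromal cells differed between the coatings too. The 6 mast cell and basophil markers summed to 26.5 to 33.7 CPM in uncoated_IgG and 14.2 to 18.5 in fibronectin_IgG, and to 19.5 to 25.6 and 9.19 to 12.8 CPM under anti-ITGAV. With the antibodies averaged, 3 of these 6 passed as lower and 0 as higher, and none was at 0. Of all genes, 5.26% were lower and 6.58% higher in that comparison, which also gave the coating calls of the lists below. The 8 lymphocyte markers summed to 60.5 to 77.7 and 31 to 44.3 CPM under IgG, and to 69 to 79.5 and 29.5 to 36.7 CPM under anti-ITGAV, with 3 of the 5 tested lower. Most of these sums was Ighm, which averaged 50.07 CPM over all libraries. Cd3e was at 0 in uncoated_IgG, uncoated_antiITGAV and fibronectin_antiITGAV, and Ncr1 in all but uncoated_IgG. The 10 stromal markers summed to 17.7 to 19.1 and 12.7 to 14.4 CPM under IgG and 14.8 to 18.1 and 9.47 to 13.2 under anti-ITGAV, with 1 of the 6 tested higher and 4 lower. Adipoq was at 0 in uncoated_antiITGAV and fibronectin_IgG, and Lepr in uncoated_antiITGAV. The 12 neutrophil markers summed to 465 to 503 and 366 to 456 CPM under IgG and 361 to 415 and 246 to 410 under anti-ITGAV, with 7 lower. The 8 dendritic cell markers, at 12.4 to 13.8 and 10.8 to 13 CPM under IgG and 13 to 15.4 and 10.4 to 12.3 under anti-ITGAV, had 0 called. Most of these sums was Irf4, which averaged 9.665 CPM over all libraries. The 10 macrophage markers had 2 lower, with a median log2 change of -0.03. Some markers also differed by antibody. For anti-ITGAV against IgG with the coatings averaged, 4 of the 12 neutrophil markers were lower and 0 higher. Of the 6 mast cell and basophil markers, 1 was lower and 0 higher, where 0.0323% of all genes were lower. The remaining marker lists had 0 called there. The part of these cells in the changes of the members was not tested.

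The genes most like Ch25h across the 16 libraries, by Pearson's r of log2 CPM among 10899 protein-coding genes with a mean of at least 1 CPM, were Ubash3b (r = 0.979), Slc39a14 (0.973), Xpot (0.972), Ccnd1 (0.968) and Pkp4 (0.967). With group means removed, which takes out the step between coatings, r was 0.584 to 0.718. The genes most like Abca1 were Ncoa4 (r = 0.99), Zfp704 (0.978), Slc9a7 (0.975), Kif3a (0.97) and Zfp652 (0.968). For these, r stayed at 0.889 to 0.969 with group means removed, among libraries of the same group. The points share their libraries, with their depth and their trends with GC content. In uncoated_IgG, uncoated_antiITGAV and fibronectin_IgG, the library lowest in Abca1 had the highest GC rho of its group (0.39, 0.5 and 0.54). Those libraries held 389.6, 323.7 and 222.1 CPM of Abca1. In fibronectin_antiITGAV the lowest, at 235.5 CPM, was library 3, with a rho of -0.69. The part of these trends in the r values was not tested. Transcript GC was 46.45 to 51.01% for the 5 genes like Abca1 and 48.79% for Abca1.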

How the data were processed

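The series holds 16 polyA-selected RNA libraries, 4 in each of 4 groups read from the coating and treatment labels. The authors deposited whole-number counts per gene and library and, for these 54532 genes, FPKM. The submitters' processing notes name featureCounts, HISAT2 and StringTie, and as builds GRCm38.p6 and mm10. Roles, versions, counting options and strand setting were not given in the sources used here. No batch or date is in the labels. Checked on the values, deposited FPKM was count over gene length over 1 constant per library, which was 0.989 to 1.04 times its total count. Coordinates are as deposited, on GRCm38; exons, transcripts and GC content are from GENCODE vM21 and promoters from RefSeq.

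Counts were analysed with edgeR 4.0.16 in R 4.3.3 (filterByExpr with a minimum count of 10, TMM, 1 mean per group over all 16 libraries, robust quasi-likelihood F test) in 7 comparisons, with Benjamini-Hochberg adjustment over all 15469 genes and a threshold of 0.05. Intervals of 95% use the same fit. Alternatives were DESeq2 1.42.0, limma 3.58.1, other scaling, filters, a GC offset, quality weights, a replicate block and leaving out each library. The GC offset joined to leaving out fibronectin_antiITGAV 3 was added after seeing the data. Each replicate pair differed beyond sampling noise (chi-square over degrees of freedom 5.11 to 182 over 24 pairs). The fit was tested on simulated data. Figures used Python 3.11.15 and matplotlib 3.10.9.

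All 10 members are named, with up to 4 genes of each of 5 pathway lists (smallest adjusted p with the antibodies averaged), Lipa, Cyp7b1, Gpr183 and Insig1, and the 5 genes most like Ch25h and Abca1 (log2 CPM with a prior count of 2). The members and lists were chosen with earlier results of these data known. Some genes that this rule names are not reported here.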

Additional observations from a re-analysis of the deposited data

Results flagged for a closer look

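Of 40 sets of 4 libraries (10 members in 4 groups), 3 held a library whose gap to its nearest neighbour was too large a share of the set's range by Dixon's criterion; chance alone marks about 1 in 20 such sets. Nr1h2 in fibronectin_antiITGAV 3 was 35.44 CPM, where the other 3 libraries of the group held 95.51, 99.85 and 93.71 CPM (ratio 0.905). Srebf1 in the same library was 40.85 CPM, where the others held 104.2, 112.4 and 101.8 CPM (ratio 0.852). Nr1h3 in uncoated_antiITGAV 1 was 9.234 CPM, where the others held 5.688, 5.635 and 5.181 CPM (ratio 0.875).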

How the results depend on the processing

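The direction of every called member stayed the same in all alternatives run, and Ch25h, Abcg1, Abca1, Mylip and Pltp were called in every fit with the antibodies averaged; Apoe was lost there without a low-count filter (adjusted p = 0.0586). Under IgG, leaving out 1 library gave 2 to 6 members called, against 1.59 to 8.4% of all genes. It gave 2 without uncoated_IgG 1 or 2 or fibronectin_IgG 1, 3 or 4. Under anti-ITGAV it gave 4 to 6, against 2.69 to 6.5% of all genes. With the antibodies averaged it gave 6, against 8.31 to 15.7% of all genes. For the antibody and the interaction, 0 members were called in every alternative. Fitting the 2 groups alone left 2 members under anti-ITGAV, where Abca1 (adjusted p = 0.0835), Mylip (0.0667), Pltp (0.0663) and Apoe (0.159) were lost; that fit has fewer libraries. Under IgG, Pltp and Apoe were called in the 2 groups alone (0.0485 and 0.0127) and with the GC offset (0.000194 and 0.00888). The log2 change of Ch25h was lowest on log2(FPKM + 1), at 1.63 under IgG, because the added 1 exceeds its uncoated FPKM.

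The replicate numbers showed no clear pairing of the libraries (r of same-numbered deviations -0.301 to 0.277 over 24 pairs, 4 of them above 0.1). Libraries also carry their own trends with GC content, and the labels do not say what a number shares. These r values therefore cannot settle whether libraries were paired. With the replicate block 3 members were called under IgG (Abcg1 at 0.0504), where 360 of all genes were called. The block called 5 under anti-ITGAV (Abca1 at 0.0559) and 6 with the antibodies averaged, where its totals are not given here. Voom with quality weights called 6, 7 and 8 members, where it called 2481, 2173 and 4128 of all genes. The edgeR fit called 586, 876 and 1831 of all genes. Voom added Pltp and Apoe under IgG, Lpcat3 under anti-ITGAV, and Lpcat3 and Nr1h3 with the antibodies averaged. The GC offset joined to leaving out fibronectin_antiITGAV 3 called 6, 6 and 7. It called 3694 of all genes with the antibodies averaged, and its other totals are not given here. Counts over all genes under IgG, 586 in edgeR, were 1059 in DESeq2, 1605 with the GC offset, 2481 with voom, 360 with the block and 309 on unfiltered FPKM. Without 1 library they ran from 253 (without uncoated_IgG 1) to 1325 (without fibronectin_antiITGAV 3), with 273 to 320 without uncoated_IgG 2 or 3 or fibronectin_IgG 3 or 4. Under anti-ITGAV, 876 in edgeR, they were 1601, 1871 and 2173 in DESeq2, the GC offset and voom, 510 on unfiltered FPKM, 251 in the 2 groups alone, and 428 to 578 without uncoated_antiITGAV 1, 2 or 3 or fibronectin_antiITGAV 4. With the antibodies averaged, 1831 in edgeR, they were 3297 with the GC offset, 4128 with voom and 3694 with the GC offset and the library left out. For the antibody, 2 on each coating in edgeR, DESeq2 gave 28 on uncoated plates and 19 on fibronectin, and voom 109 and 6. The causes were not tested. Ch25h on uncoated plates rests on 12 to 43 counts per library.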
